A study of Mus musculus with 2 samples.

Results

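The proteins that carry long-chain fatty acids into the liver cell and through its cytosol were followed in livers of mice with and without Iah1. They are represented by 10 genes chosen by name, 10 of the 22180 genes that the arrays measured through probe sets naming exactly 1 gene. The genes are the scavenger receptor Cd36, the Slc27 transporters Slc27a1, Slc27a2, Slc27a4 and Slc27a5, and the fatty acid binding proteins Fabp1, Fabp2, Fabp4, Fabp5 and Fabp7. Together they have 14 probe sets, of which none names a second gene.

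The study holds 2 Affymetrix whole-transcript arrays of liver RNA, 1 from mice that lack Iah1 in the whole body (Iah1-KO) and 1 from Iah1-WT mice. Iah1 is named after a yeast esterase that cleaves isoamyl acetate. Both groups were male, lived 1 to a cage, ate standard chow until 6 weeks of age and a high-fat diet for the following 12 weeks, and had no food for 4 hours before the liver was taken. Each array carried the pooled RNA of 3 mice, so the spread between animals cannot be seen, no array was repeated, and no test or p-value of the genotypes is given; the way the knockout was made was not stated in the labels. Values are log2 signals after RMA (robust multi-array average, which removes background, makes the arrays' distributions equal and joins the probes of a probe set), and differences are KO minus WT on that scale. Signals of different probe sets depend on their probes and are not set against each other as amounts of RNA.

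Fatty acids reach the hepatocyte bound to albumin or released from lipoproteins. CD36 takes them up at the plasma membrane, and the SLC27 proteins, also called fatty acid transport proteins, couple uptake to activation as acyl-CoA. Inside the cell, the small FABP proteins hold the fatty acid in a barrel-shaped pocket and carry it to membranes, to enzymes or to nuclear receptors such as PPAR-alpha. In mouse liver, Fabp1 is the abundant hepatocyte form, Fabp4 belongs to adipocytes, macrophages and capillary endothelium, and Fabp7 has been described in Kupffer cells, the resident macrophages of the liver.

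The knockout was visible in its own transcript. Iah1 had a signal of 3.90 in the KO array against 8.59 in the WT array. The filter on intensity, below which a signal is treated here as unmeasured, was 4.68, and against it Iah1 was at least 15.1-fold lower in KO. Of 9 hepatocyte markers above this filter, 3 lay above 0 and 6 below, with a median of -0.01 and a mean of -0.08, and those farthest from 0 were the serpin gene Serpina1e at -0.49, the urea cycle gene Cps1 at -0.13 and the transcription factor gene Hnf4a at -0.07. The filter kept 11090 genes, whose median difference was -0.02, and 4912 of them lay above 0 and 6176 below.

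1 of the 10 genes differed by 1.5-fold or more between the arrays. Fabp7 was lower in KO, at 6.81 in the KO array against 7.45 in the WT array, a difference of -0.64 or 1.56-fold. Among all genes above the filter, 3.92% differed by 1.5-fold in either direction, 2.45% being lower in KO and 1.47% higher. 9 of the 10 members passed the filter, 6 of them below 0 and 3 above, with a median of -0.06. Fabp5 did not pass. With the threshold at 1.2-fold, Fabp7 was again the 1 member lower in KO, against 14.4% of all genes, and no member was higher, against 9.3% of all genes; 23.7% of all genes reached that threshold in either direction. Fabp4 lay just short of 1.2-fold, at 1.19-fold lower. A single member past 1.5-fold among 9 is a count too small to be read against such shares.

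**Figure D1:**
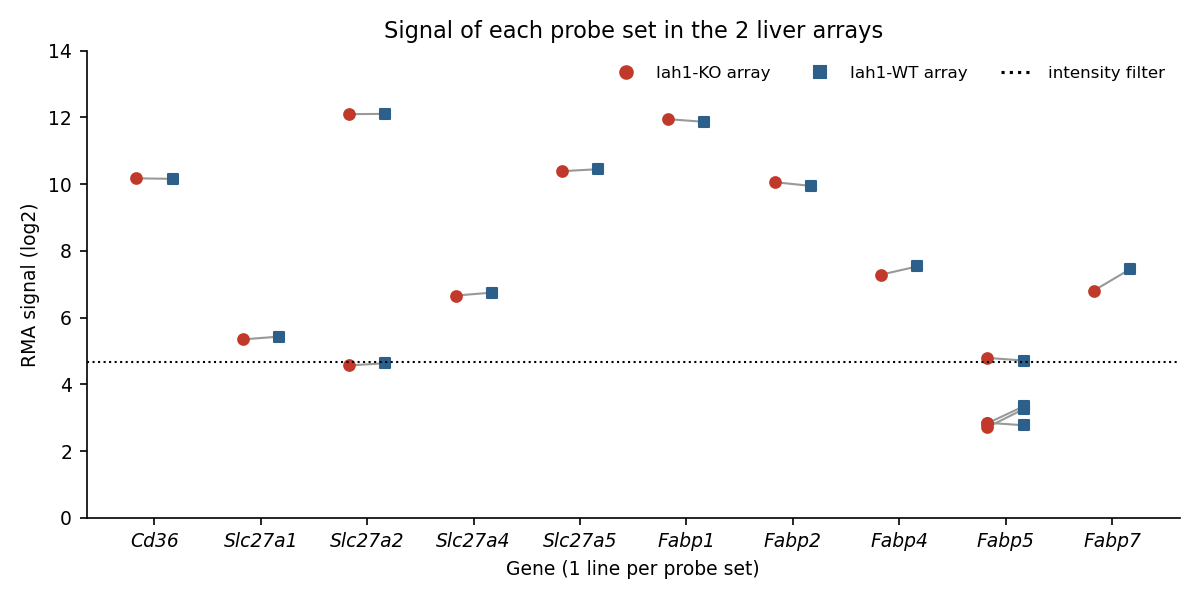
RMA signal (log2, vertical axis) of each of the 14 probe sets of the 10 genes in the Iah1-KO array (red circles, left of each pair) and the Iah1-WT array (blue squares, right). Grey lines join the 2 values of a probe set and the dotted line is the intensity filter at 4.68; the steepest line above the filter is that of Fabp7, at 6.81 in KO and 7.45 in WT.

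Cd36 and Fabp1, the receptor and the main binding protein of this pathway, are textbook targets of PPAR-alpha, which binds DNA with its partner RXR at a direct repeat of 2 half-sites spaced by 1 base, called DR1. The 250 bases before the annotated start are printed for them and for Fabp7, the member that differed most, from RefSeq on GRCm38.p6, 5′ to 3′ on the gene's strand, with matches to DR1 in capitals.
Fabp1, chr6:71199629-71199878, plus strand: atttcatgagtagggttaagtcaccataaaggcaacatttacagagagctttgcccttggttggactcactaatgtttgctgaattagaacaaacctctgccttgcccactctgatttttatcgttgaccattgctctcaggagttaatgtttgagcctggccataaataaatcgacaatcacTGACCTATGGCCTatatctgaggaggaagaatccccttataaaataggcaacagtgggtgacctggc
Cd36, chr5:17835897-17836146, minus strand: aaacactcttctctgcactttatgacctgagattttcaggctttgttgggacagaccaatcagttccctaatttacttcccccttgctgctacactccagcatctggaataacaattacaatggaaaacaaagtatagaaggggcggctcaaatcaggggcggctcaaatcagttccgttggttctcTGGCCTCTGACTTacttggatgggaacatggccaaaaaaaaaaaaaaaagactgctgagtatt
Fabp7, chr10:57784673-57784922, plus strand: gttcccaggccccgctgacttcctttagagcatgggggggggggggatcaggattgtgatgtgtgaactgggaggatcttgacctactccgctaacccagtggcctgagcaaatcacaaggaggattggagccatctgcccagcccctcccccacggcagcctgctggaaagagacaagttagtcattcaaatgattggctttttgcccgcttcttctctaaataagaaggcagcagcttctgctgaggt
The search used AGGTCANAGGTCA on both strands with up to 2 mismatches. Fabp1 has a match with 1 mismatch from -67 to -55 relative to the start, on the opposite strand, and a TATAAA box from -30 to -25 that does not overlap it. Cd36 has a match with 2 mismatches from -63 to -51, also on the opposite strand. The Fabp7 window holds no such letters. Over 32851 mouse promoter windows of this length, 0.484% hold the motif with at most 1 mismatch, 3.24% with at most 2, and 12.4% hold TATAAA on either strand. 7 of the 10 genes had an entry, with 9 windows in all; among the other windows, those of Fabp2, Slc27a1, Slc27a2 and Slc27a4, there was no match to either. Fabp4, Fabp5 and Slc27a5 had none. A match describes letters and is not a measured binding site.

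Cd36, the receptor at the cell surface, had 10.18 in the KO array against 10.16 in the WT array. The difference of 0.01 corresponds to 1.01-fold. Fabp1, whose promoter carries the closer DR1 match, had 11.95 in KO against 11.87 in WT, a difference of 0.08 or 1.06-fold. Fabp2, which carries fatty acids in enterocytes and is also transcribed in mouse liver, had 10.06 in KO against 9.95 in WT, a difference of 0.11 or 1.08-fold. These 3 were the members with the higher value in the KO array, each by less than 0.26, the standard deviation with which probe sets of 1 gene disagreed about the same difference (321 genes with 752 probe sets, all above the filter). That deviation is the only error 2 arrays contain; it covers the choice of probes and not mice, labelling or hybridisation.

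The 4 Slc27 transporters all lay slightly below 0, between -0.09 and -0.04, with a median of -0.07. Slc27a5, which in liver is a bile acid-CoA ligase as well as a transporter, had 10.39 in KO against 10.45 in WT, a difference of -0.06. Slc27a2, which activates very long-chain fatty acids in peroxisomes and the endoplasmic reticulum, has 2 probe sets. One read 12.10 in KO against 12.11 in WT, and the other, below the filter in both arrays, read 4.57 in KO against 4.63 in WT. The differences of the 2 probe sets were -0.01 and -0.07. Slc27a4, the transporter best known from the small intestine, had 6.66 in KO against 6.75 in WT, a difference of -0.09. Slc27a1, the insulin-responsive transporter of muscle and fat, had 5.35 in KO against 5.43 in WT, a difference of -0.08. All 4 differences were smaller than the disagreement between probe sets, and 55.7% of all genes above the filter also lay below 0.

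**Figure D2:**
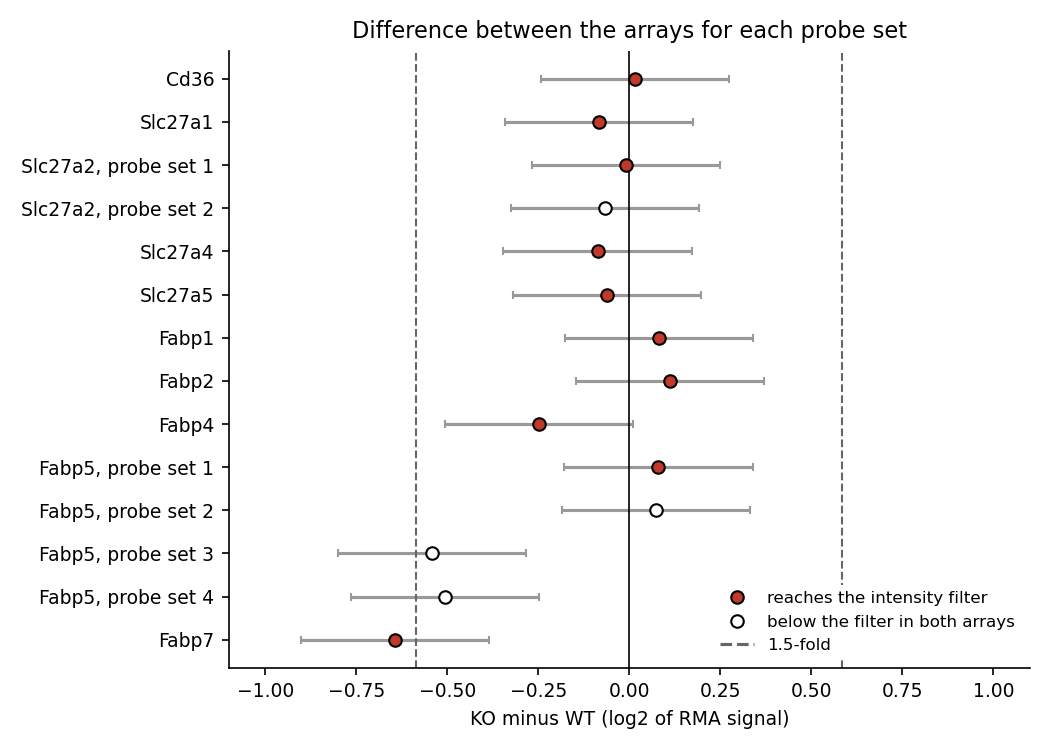
Difference between the arrays (KO minus WT, log2, horizontal axis) for each probe set of the 10 genes. Bars are 1 standard deviation of a single probe set's difference, 0.26, estimated from genes with several probe sets above the filter. The same bar is drawn at every brightness, although the spread of differences was wider for dim genes. Dashed lines mark 1.5-fold and open circles lie below the intensity filter in both arrays. Fabp7 is the only filled circle beyond a dashed line.

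The spread of differences depended on brightness. When the genes above the filter were put in 4 equal groups by mean signal, the standard deviation of the difference was 0.36 in the dimmest group, 0.28 and 0.20 in the next ones and 0.16 in the brightest. 5 members were in the brightest group, Cd36, Slc27a2, Slc27a5, Fabp1 and Fabp2. They lay between -0.06 and 0.11, and all 5 differed by less than 1.2-fold, while 7.32% of the 2773 genes of that group reached 1.2-fold in either direction. Slc27a4, Fabp4 and Fabp7 were in the next brightest group and Slc27a1 in the dimmest. In the group of Fabp7, 28 of 2772 genes, or 1.01%, were at least 1.5-fold lower in KO, and 11.1% at least 1.2-fold lower. Fabp7 held place 202 of 11090 when all genes above the filter were ordered from the most negative difference, Fabp4 place 1743 and Slc27a4 place 4154.

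**Figure D3:**
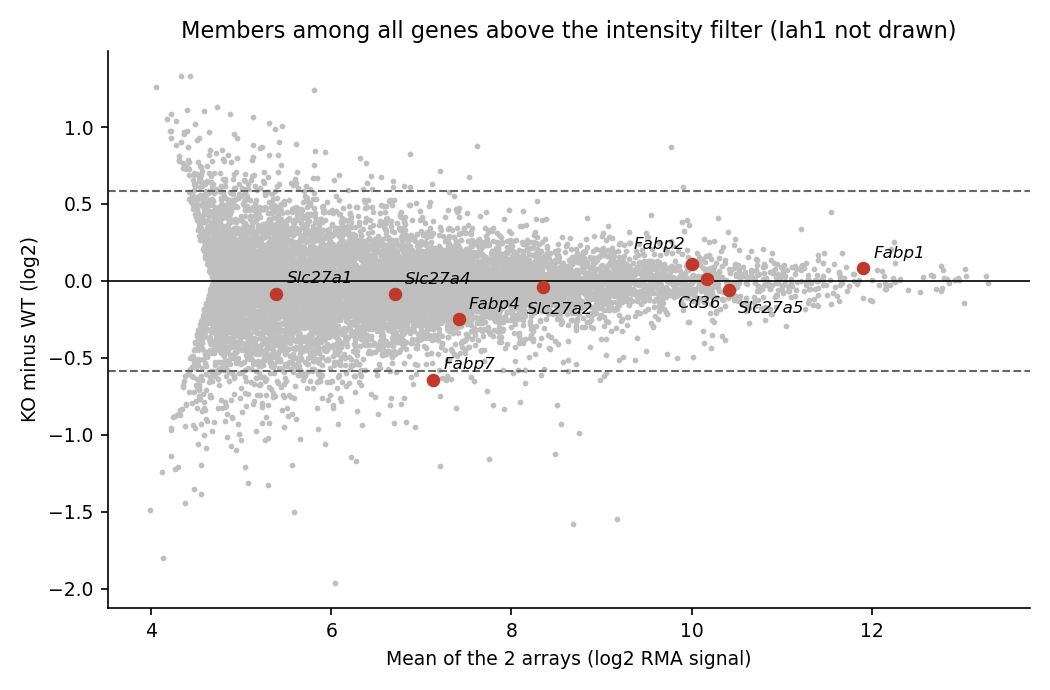
Difference between the arrays (KO minus WT, log2, vertical axis) against the mean signal (log2, horizontal axis) for the genes above the intensity filter, with 9 members in red and Iah1 left out because of its size. Grey points narrow toward the bright end; Fabp7 at -0.64 lies below the dashed line of 1.5-fold, and the 5 brightest members lie between -0.06 and 0.11.

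The member binding proteins above the filter differed in sign. Fabp1 and Fabp2 were at 0.08 and 0.11, and Fabp4 and Fabp7 at -0.25 and -0.64. Among these genes, only Fabp7 differed by more than 0.26, the disagreement between probe sets of 1 gene, so the signs of the others are uncertain. Fabp4, the binding protein of adipocytes, macrophages and capillaries, had 7.29 in KO against 7.54 in WT, 1.19-fold lower. Fabp7, the brain-type form that prefers polyunsaturated fatty acids, rested on a single probe set, as did 8 of the 10 members, so its difference has no second reading on the array.

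Fabp5, the epidermal form that macrophages and endothelium also make, could not be settled. Its mean over 4 probe sets was 3.30 in KO against 3.52 in WT, below the filter in both. The 4 probe sets disagreed. The first had 4.79 in KO against 4.71 in WT and was the 1 that reached the filter, the second had 2.85 in KO against 2.77 in WT, the third 2.72 in KO against 3.26 in WT and the fourth 2.84 in KO against 3.34 in WT. The differences were 0.08, 0.07, -0.54 and -0.51, so the sign depended on the probe set. The mouse annotation also lists a Fabp5-like pseudogene, Fabp5l2, and whether its transcripts reach these probes was not tested.

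Macrophage and endothelial markers were lower in the same KO array. In whole liver, fewer cells of a type and less RNA per cell cannot be told apart. Over all genes above the filter, 55.7% lay below 0 and 2.45% were at least 1.5-fold lower in KO. All 13 Kupffer cell and macrophage markers were above the filter in at least 1 array, and all 13 lay below 0, with a median of -0.47 and 3 of them 1.5-fold lower. Their summed linear-scale signal, weighted toward the brightest probe sets and not an amount of RNA, was 1861 in KO against 2622 in WT. The difference of Fabp7 lay within their range of -0.81 to -0.09, with 3 markers lower (the complement gene C1qb at -0.81, the phagocytic receptor Vsig4 at -0.71 and Adgre1, the F4/80 antigen, at -0.67) and 10 higher, among them the Kupffer lectin Clec4f at -0.47 and C1qc at -0.09. All 13 sinusoidal endothelial markers also lay below 0, with a median of -0.54, 5 of them 1.5-fold lower, and a summed signal of 2614 in KO against 3710 in WT. Their range was -0.83 for Lyve1 to -0.25 for Gpr182, and the other 4 past 1.5-fold were Tek at -0.66, Oit3 at -0.62, Cdh5 at -0.61 and Clec4g at -0.59. Fabp7 was lower than 11 of these 13 and than all 9 hepatocyte markers above the filter. The part of these cells in the value of Fabp7 was not tested.

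Fabp4 and Cd36 stood elsewhere relative to the same markers. At -0.25, Fabp4 was above all 13 endothelial markers and above 11 of the 13 macrophage markers. Cd36, which endothelium and macrophages also carry, lay at 0.01, above every marker of either list. The part of these cells in the values of both genes was not tested either. Fabp4 is also an adipocyte gene, and the defining markers of adipocytes were low. Adipoq, Lep, Retn, Plin1 and Slc2a4 stayed below the filter in both arrays, with Adipoq at 3.73 in KO against 3.67 in WT and Plin1 at 4.59 in KO against 4.07 in WT. The 4 adipocyte-list genes above the filter, Car3 at 0.18, Cidec at 0.17, Lipe at 0.07 and Pck1 at -0.07, had a median of 0.12 and are also transcribed in liver. The summed signal of the 9 measured adipocyte-list genes was 7197 in KO against 6901 in WT, most of it that of Car3 and Pck1.

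Stellate and enterocyte markers were examined for the remaining sources of binding proteins. Of 10 stellate cell markers, all above the filter in at least 1 array, 7 lay below 0 and 3 above, with a median of -0.18, a mean of -0.05 and a summed signal of 1889 in KO against 2111 in WT. The retinol acyltransferase gene Lrat was at -0.52 and the nerve growth factor receptor gene Ngfr at -0.39. Des, the intermediate filament gene, was at 0.93, with 4.68 in KO against 3.75 in WT. It was the 1 gene of the list past 1.5-fold, but its KO signal only just reached the filter of 4.68. Its WT signal was below the filter and counts as unmeasured, so the size of its difference is uncertain. The list mean includes this value. Among enterocyte markers, Vil1, Alpi, Lct, Sis, Cdx2 and Rbp2 were below the filter in both arrays. The 4 that reached it in at least 1 array were Apoa4 at 0.45, Anpep at 0.18, Mttp at 0.14 and Cdx1 at -0.34. The first 3 are also hepatocyte transcripts. Cdx1, at 4.50 in KO against 4.83 in WT, reached the filter in the WT array only. The summed signal of the list, dim markers included, was 5665 in KO against 4536 in WT, most of it that of Apoa4.

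**Figure D4:**
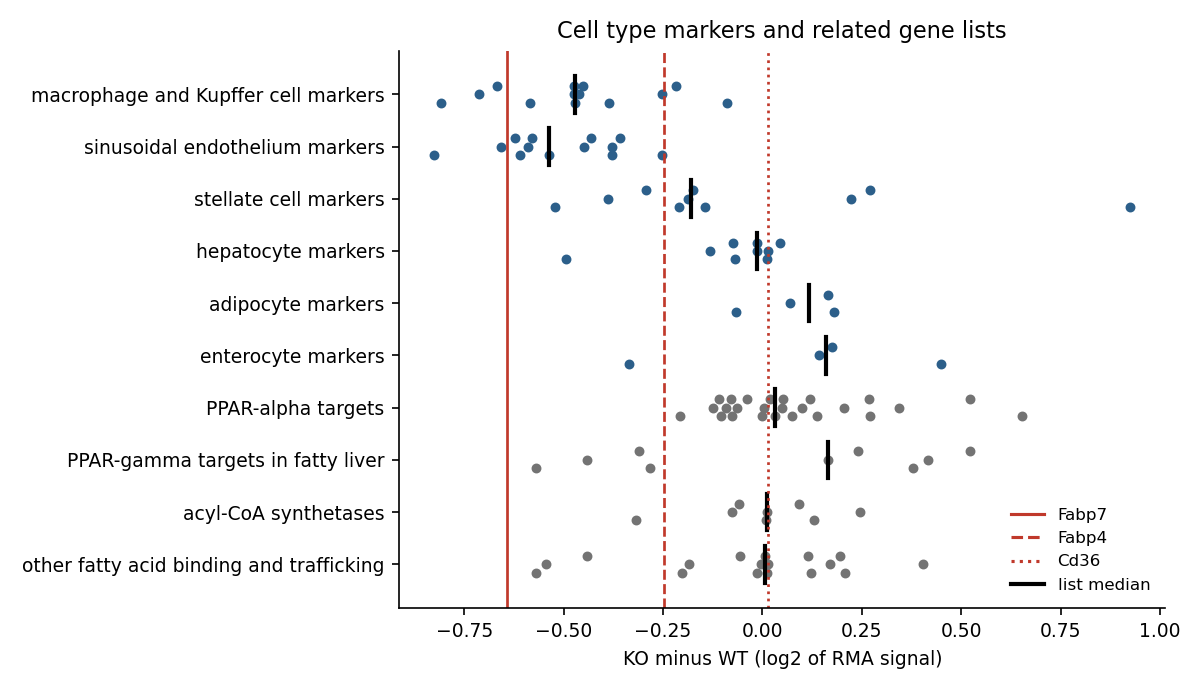
Difference between the arrays (KO minus WT, log2, horizontal axis) for each gene above the filter in 6 marker lists (blue) and 4 related pathway lists (grey), with black bars at the list medians and vertical red lines at Fabp7, Fabp4 and Cd36. Every macrophage and endothelial marker lies left of 0, the line of Fabp7 at -0.64 runs within both lists, and the line of Cd36 at 0.01 lies to the right of both.

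The other genes of the same families were mostly dim. Of 11 measured relatives, Slc27a3, Slc27a6, Fabp6, Fabp9, Fabp12, Pmp2 and the retinoid carriers Rbp2, Rbp7, Crabp1 and Crabp2 stayed below the filter. Fabp3, the heart and muscle form, was the 1 that passed, with a gene value of 5.97 in KO against 6.13 in WT. One of its 2 probe sets read 8.36 in KO against 8.39 in WT, a difference of -0.03. The other, at -0.28, read 3.59 in KO against 3.88 in WT, below the filter in both arrays. In the annotation, Fabp5, Pmp2, Fabp9, Fabp4 and Fabp12 lie in this order, close together, on chromosome 3 and Fabp7 stands alone on chromosome 10; within that row of genes Fabp4 alone had a gene value above the filter.

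Genes of fatty acid binding, uptake and supply outside these families lay near 0 by their median. Of 17 such genes above the filter, 9 lay above 0 and 8 below, with a median of 0.01 and a mean of -0.05. None reached 1.5-fold by its gene value. The values farthest from 0 belonged to the lipoprotein receptor gene Vldlr at -0.57, the caveolin gene Cav2 at -0.54 and the lipoprotein lipase gene Lpl at -0.44. The gene value of Lpl, which reached the filter in the WT array only, is a mean of 2 probe sets. One read 5.93 in KO against 6.75 in WT, a difference of -0.82, past 1.5-fold. The other, at -0.06, read 3.21 in KO against 3.27 in WT, below the filter in both arrays. Dbi, which binds acyl-CoA after activation, was at 0.21, and Scp2, the sterol and fatty acid carrier of peroxisomes, at -0.00 (-0.0038). Acyl-CoA synthetases, a list that mixes enzymes for short, medium and long chains, had 5 of 8 genes above 0 and a median of 0.01. Farthest from 0 were Acsl4 at -0.32, Acss3 at 0.25 and Acss2 at 0.13. The long-chain genes Acsl1 and Acsl3 were not measured.

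Regulators of the members were measured next. 20 were above the filter, 10 above 0 and 10 below, with a median of -0.02, a mean of 0.00 (0.0023) and none at 1.5-fold. Ppara was at 9.50 in KO against 9.48 in WT. Pparg, the regulator of Cd36 and Fabp4 in fat cells and macrophages, was at 6.91 in KO against 7.22 in WT, a difference of -0.31. Rxrb was at 0.31 and the coactivator gene Ppargc1b at 0.29. Of 25 PPAR-alpha targets above the filter, 15 lay above 0 and 10 below, with a median of 0.03 and a mean of 0.08. The hormone gene Fgf21, at 5.35 in KO against 4.70 in WT (1.57-fold higher), was the 1 past 1.5-fold. Its WT signal lay close to the filter of 4.68. Fgf21 was in the dimmest brightness group, where 4.36% of genes were at least 1.5-fold higher in KO. Next were the thioesterase genes Acot4 at 0.52 and Acot3 at 0.34. Acot4 had probe sets at 0.89 and 0.15. PPAR-gamma targets of fatty liver had 5 of 9 genes above 0, a median of 0.17 and a mean of 0.01, with Vldlr and Lpl as above and the acyltransferase gene Mogat1 at 0.52. Beside them, Cd36, a target of both receptors, was at 0.01 and Fabp4, a target of PPAR-gamma, at -0.25.

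The bile acid genes around Slc27a5 were measured last. Slc27a5 makes bile acyl-CoA, which Baat joins to taurine or glycine. Baat had 9.44 in KO against 9.19 in WT, a difference of 0.25, beside -0.06 for Slc27a5. Cyp7a1, which starts and limits bile acid synthesis from cholesterol, had 8.08 in KO against 9.01 in WT, a difference of -0.93, and was the 1 gene of this list past 1.5-fold. Cyp8b1, which adds the hydroxyl group of cholic acid, was at 0.28. Of the 10 genes above the filter, 7 lay above 0 and 3 below, with a median of 0.03 and a mean of -0.04.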

How the data were processed

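RNA of liver was hybridised to 2 arrays, 1 per genotype, each a pool of 3 mice, from 100 ng of RNA per the labels' protocols. The authors deposited log2 values per probe set, made with RMA in Affymetrix Expression Console 1.3.0, both named in the submitters' processing notes. A genome build for the probe sets was not given in the sources used here. RMA compresses differences of dim probe sets and would remove a shift shared by all transcripts.

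Of 41345 probe sets, 23521 named 1 gene symbol in the platform annotation and were used, and 1814 naming several were left out. Gene values are means of log2 values over probe sets. A gene entered the comparison where its higher array reached the median of these higher values, 4.68. Genes were counted at 1.5-fold, with no test, since each genotype has 1 array. The members and the gene lists (7 pathway and 6 marker lists) were chosen with earlier results of these data known. The text names the 10 members, Iah1 and, per list, genes past 1.5-fold and the 3 largest differences; other list genes were named after their values were seen. Listed genes without a probe set of 1 symbol were not analysed here. Alternatives were other thresholds and filters, quantile normalization again, subtraction of the median or of a lowess fit (span 0.4), the brightest probe set and the list mean. The difference and lowess steps were tested on simulated data with 1 probe set per gene. Averaging over probe sets and the filter were not tested there. Python 3.11.15, pandas 2.3.3 and statsmodels 0.14.6 were used. The number of arrays limits the precision.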

Additional observations from a re-analysis of the deposited data

How the results depend on the processing

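No paired analysis was possible because each genotype has 1 array. The count of members past the fold threshold was 1, Fabp7, under 7 of 8 alternatives and 0 at a threshold of 2-fold. The brightest probe set, no filter and the 1.2-fold threshold could not have dropped Fabp7, which has 1 probe set. The values of 9 of the 10 members kept their sign under the scaling and probe set alternatives run; Fabp7 stayed between -0.64 and -0.61, Fabp4 between -0.25 and -0.21, and Cd36 between 0.01 and 0.04. Fabp5, with its brightest probe set in place of the mean of 4, was at 0.0802 instead of -0.22 and then passed the filter. The enterocyte marker median was -0.11 without the intensity filter, against 0.16 with it, because the dim markers then entered. Medians near 0 changed sign for the regulators (0.01) and the hepatocyte markers (0.01) once the median difference was subtracted. Means opposed medians for the fatty acid trafficking (-0.05), bile acid (-0.04) and regulator lists (0.0023), and with the sign kept differed from them by over 1.5 times for the stellate (-0.05), hepatocyte (-0.08), PPAR-alpha (0.08), PPAR-gamma (0.01) and acyl-CoA synthetase lists (0.0049). With pooled RNA and 1 array per genotype, none of these values separates genotype from differences between mice or arrays.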
